A study of Mus musculus with 6 samples.

Results

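The Hox genes are homeobox transcription factor genes that lie in 4 clusters, Hoxa, Hoxb, Hoxc and Hoxd, and each gene has a paralog number between 1 and 13 that gives its place along its cluster. Their measurements were taken from arrays of laser-captured mouse limb tissue. Members were chosen by gene name (Hoxa to Hoxd followed by such a number), with no use of measured values, and each gene was represented by its brightest probe, by mean level over the 6 arrays. This gave 38 of the 39 mouse Hox genes in the RefSeq gene table and 38 of the 19504 named genes on the array. There were 11 Hoxa genes, 10 Hoxb genes, 8 of the 9 Hoxc genes and 9 Hoxd genes. Hoxc11 had no probe under that name and was not analysed here. By the probe positions in the files, which name no genome build, the Hoxa probes lie on chromosome 6, the Hoxb probes on chromosome 11, the Hoxc probes on chromosome 15 and the Hoxd probes on chromosome 2.

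The tissue was the autopod, the limb segment that forms the hand or foot, of C57BL/6 embryos at E14.5. The mutant genotype is labelled Tgfbr2Prx1KO, which by its form names loss of Tgfbr2, a receptor gene for TGF-beta signals, by a recombinase under the Prx1 promoter. That promoter is active in limb mesenchyme and not in the overlying epidermis. The control genotype is labelled wild type. Per the labels' protocols, 2 mutant and 2 control littermate embryos supplied the cells, and the same embryos may stand behind all 3 tissues, so the 3 mutant and control pairs were not independent. The 6 groups were mutant interzone, mutant growth plate, mutant interdigital tissue, control interzone, control growth plate and control interdigital tissue, with 1 array each. The interzone is the cell band where a joint will form, the growth plate is the cartilage beside it, and the interdigital tissue lies between the digits. The sources used here do not say whether forelimbs or hindlimbs were taken. As every group is 1 array, no difference has a replicate check, and no p-value is given.

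Levels are log2 processed signals relative to the 75th percentile of the same array, so a level of 0 is that percentile and 1 unit is 2-fold. Signals of different probes are not on one scale, so each gene is compared between arrays only with itself. The median SD of replicate spots of 1 probe was between 0.07 and 0.10 on the log2 scale on each array, which covers the array and not the amplification of the captured RNA or the embryos. Between 72.3% (control growth plate) and 88.3% (control interdigital tissue) of spots were well above background, and no spot was saturated. The interzone pair lay on 1 slide. Both other mutant arrays lay on the other slide and their controls on the first, so slide and genotype cannot be told apart for those pairs. The brightest probe of Tgfbr2, the targeted gene, had levels of 2.22, 1.20 and 1.91 on the mutant interzone, growth plate and interdigital arrays, against 2.42, -2.42 and 2.49 on the control arrays in the same order. The sources used here do not place that probe relative to the deleted part, so it does not check the labels. Because tissue was captured in bulk, fewer cells of a type and less RNA per cell cannot be told apart.

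Hox proteins set position along the body axis, and in the limb the genes at the high-numbered end of Hoxa and Hoxd pattern the segments from shoulder to digit. Hoxa13 and Hoxd13 are needed for the hand and foot plate and its digits, whereas Hoxa11 and Hoxd11 are best known for the forearm. Hoxb and Hoxc genes are known for the trunk and for the limb's place along it, with Hoxc10 more active in hindlimbs than forelimbs, and Hoxc13 is known for hair and nail formation.

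Most of the Hox genes were measurable in the autopod. Of the 38 genes, 33 (86.8%) were well above background on all 6 arrays, near the 79.9% of all named genes, and Hoxa11, Hoxb1 and Hoxd1 were not well above background on any. Hoxb7 and Hoxd8 were well above background on some arrays. All 8 Hoxc genes, 10 of 11 Hoxa genes, 8 of 10 Hoxb genes and 7 of 9 Hoxd genes were in the first class. Hoxa9, Hoxa13, Hoxb6, Hoxb13, Hoxd9 and Hoxd13 were the 6 genes above the 75th percentile on every array, which describes the signal of their probes and does not rank the genes by RNA amount. The plot of level against paralog number shows these genes on all arrays.

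**Figure D1:**
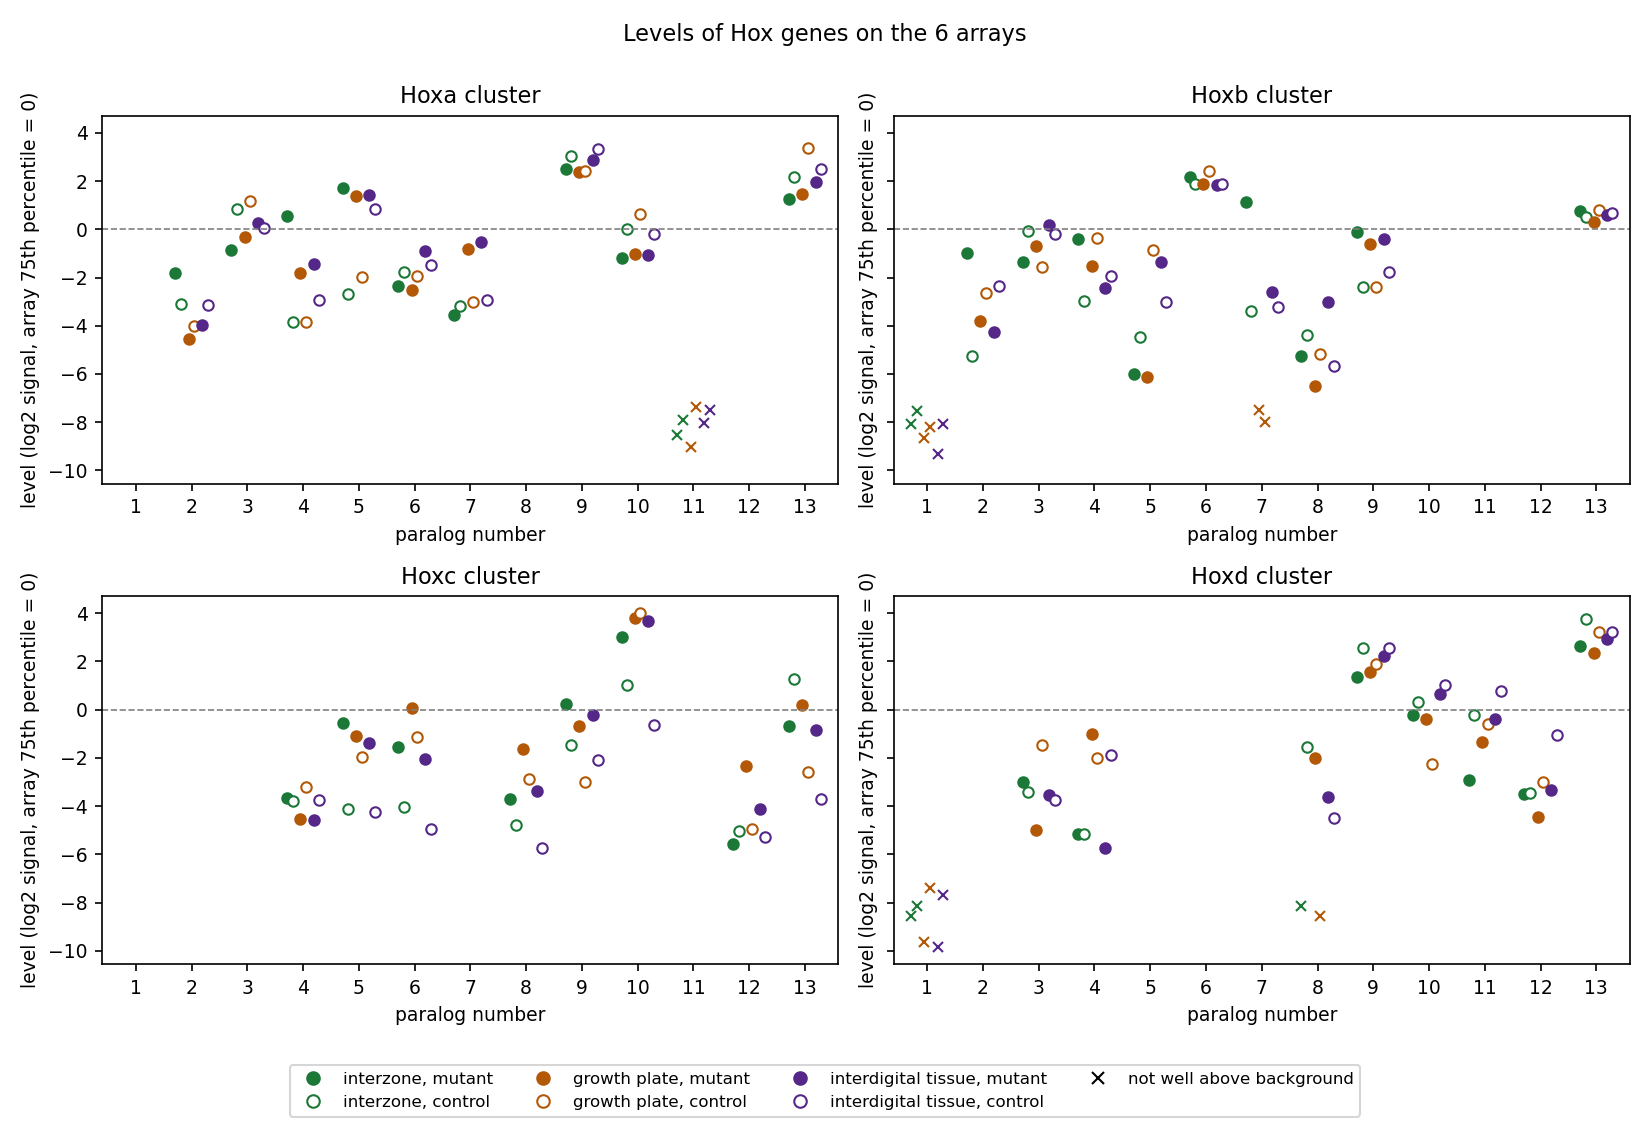
Level of Hox genes (vertical axis, log2 signal with the array's 75th percentile at 0) by paralog number (horizontal axis) in each cluster. Filled circles are mutant arrays, open circles control arrays, colours the 3 tissues, and crosses arrays where the probe was not well above background, as for Hoxa11, Hoxb1 and Hoxd1 on every array. Heights of different genes come from different probes and are not on one scale.

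Over the 33 genes measured on all 6 arrays, the gap between a gene's lowest and highest array had a median of 3.25 and ran from 0.50 for Hoxb13 to 5.26 for Hoxb5. Over the 15589 named genes measured on all arrays the median gap was 2.16. Among genes with a mean level above 1 the Hox median was 1.30 over 6 genes, and that of all such named genes was 1.5 over 3768 genes.

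Mutant tissue held Hox genes that were higher and Hox genes that were lower than in control tissue. In the interzone 12 of the 34 genes measured on both arrays were at least 2-fold higher in the mutant and 9 at least 2-fold lower, where 17.5% of all named genes were at least 2-fold higher and 23.0% at least 2-fold lower. In the growth plate 11 of 33 were higher and 10 lower, set beside 22.3% and 32.1% of all genes. In interdigital tissue 12 of 35 were higher and 5 lower, with 10.2% of all genes higher and 15.8% lower. The share of Hox genes that was higher, 35.3%, 33.3% and 34.3% in these tissues, was above the share over all genes each time. In the growth plate this rests on the setting, since with quantile normalization 18.2% of the Hox genes were higher, against 19.5% of all genes, and 15.2% were with the deposited table, against 13% of all genes. The median mutant minus control difference of the Hox genes was -0.02 in the interzone, -0.50 in the growth plate and 0.21 in interdigital tissue, with medians over all named genes of -0.13, -0.43 and -0.18.

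The growth plate counts depend on how the arrays are scaled. With the 75th percentile taken over probes detected on all arrays, the all-gene median there was -0.07, and with the authors' deposited table, which divides each array by its own median, it was -1.56. Of all genes called in the growth plate 41.0% were on the higher side, against 54.4% with that percentile and 16.8% with the deposited table. In the interzone 43.3% of called genes were on the higher side, and 70.9% with normexp background correction. Differences between genes within a tissue do not depend on the scaling by a percentile or median.

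The Hoxc genes were the cluster with the most genes higher in the mutants. In interdigital tissue 7 of 8 were at least 2-fold higher and none lower, with a median difference of 2.63. In the interzone and in the growth plate 5 of 8 were higher by 2-fold or more and 1 lower, the median differences being 1.37 and 1.23. With 8 genes and 1 array per group, such counts describe these arrays only. The Hoxd genes lay the other way in the interzone (0 of 7 higher, 3 lower) and in interdigital tissue (0 of 8 higher, 3 lower), and had 2 higher and 2 lower of 7 in the growth plate. The Hoxa genes had 3 higher and 3 lower of 10 in the interzone, the same counts in the growth plate, and 2 higher and 1 lower of 10 in interdigital tissue. The Hoxb genes had 4 higher and 2 lower of 9 in the interzone, 1 higher and 4 lower of 8 in the growth plate, and 3 higher and 1 lower of 9 in interdigital tissue. Over all named genes 17.5%, 22.3% and 10.2% were at least 2-fold higher in interzone, growth plate and interdigital tissue, and 23.0%, 32.1% and 15.8% lower. In the growth plate the lower shares of Hoxa (30%) and Hoxd (28.6%) are near that of all genes. Averaged over the 3 tissues, 7 of 8 Hoxc genes were higher in the mutants (median 1.76) and 6 of 7 Hoxd genes lower (median -0.94), while the median over all named genes was -0.23. By the same average 5967 of the 15589 named genes measured on all arrays were higher in the mutants and 9622 lower, so most genes lay on the lower side. The Hoxc median stayed above 0 in each tissue under all settings tried, with its lowest value, 0.10, in the growth plate with the deposited table.

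**Figure D2:**
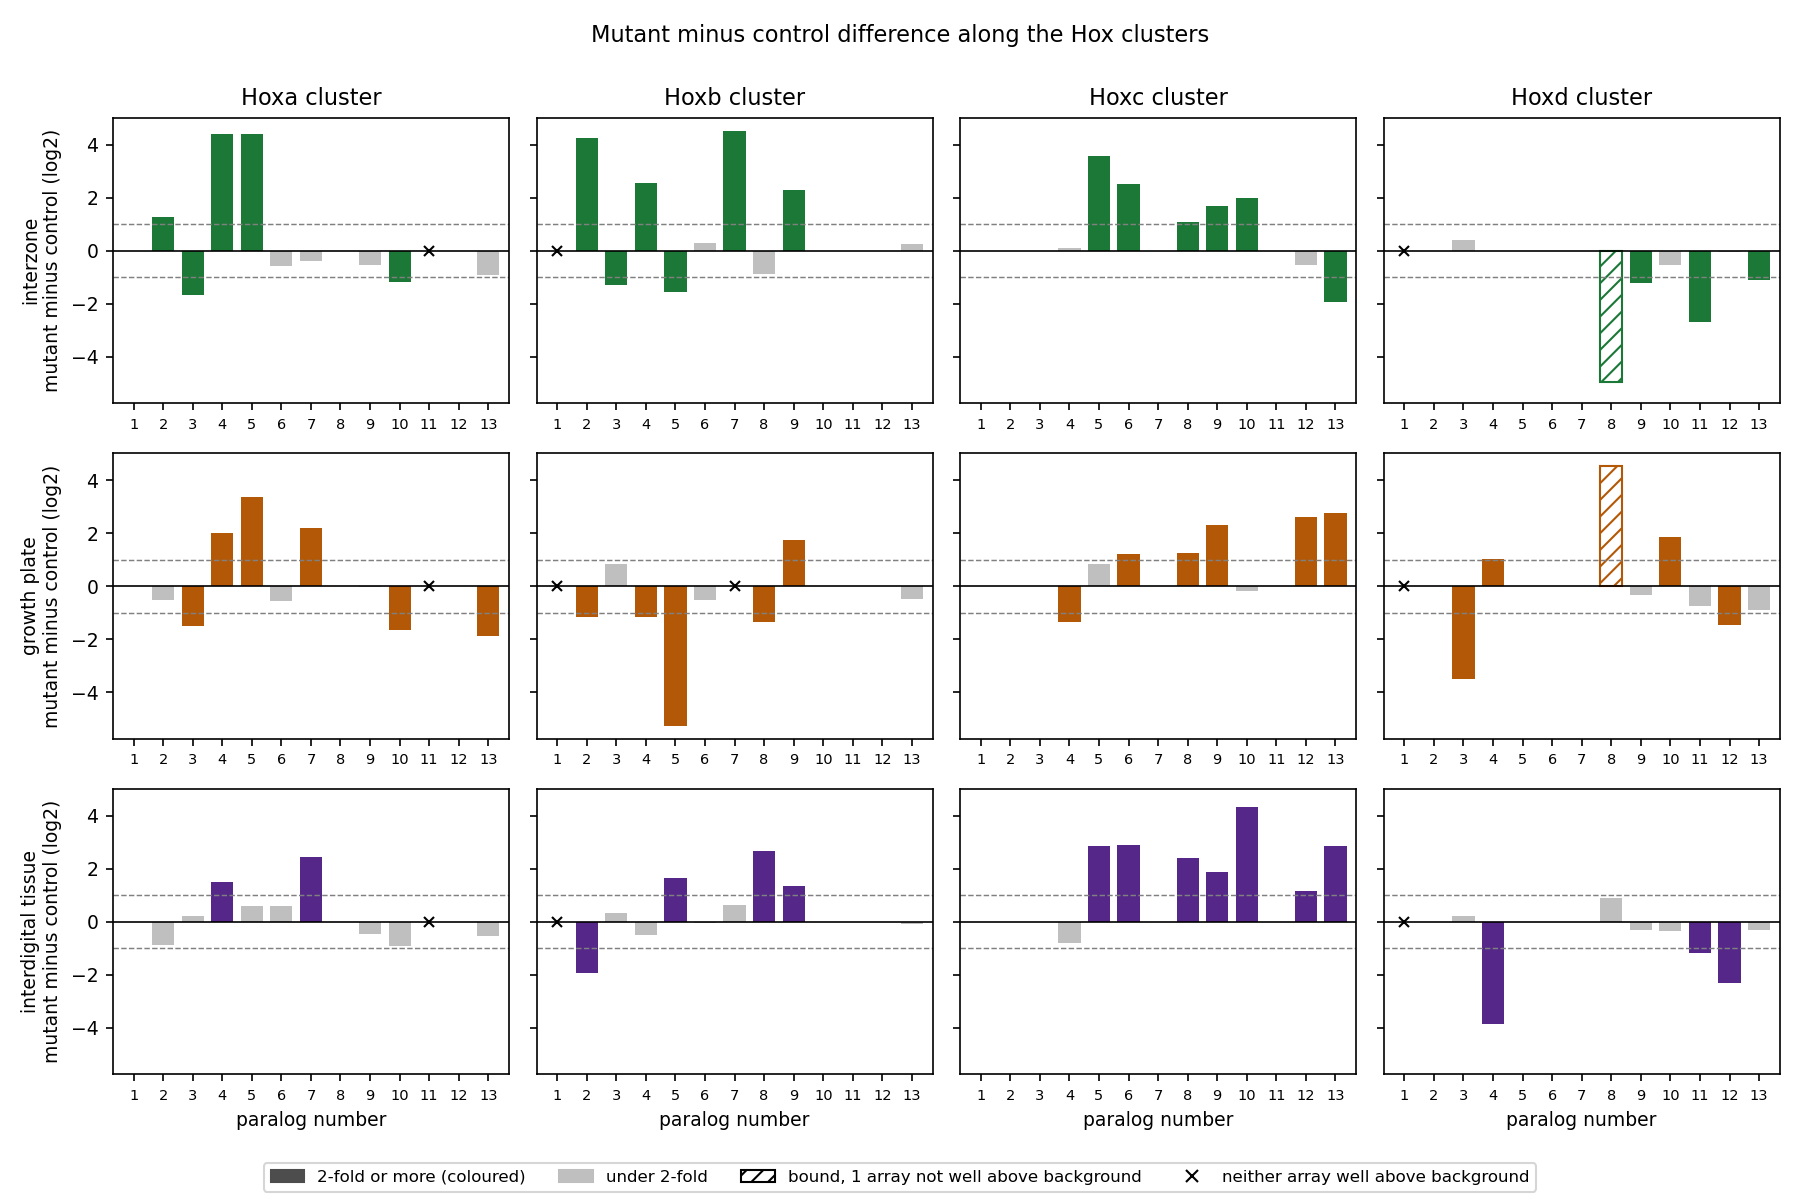
Mutant minus control difference (vertical axis, log2) of Hox genes by paralog number (horizontal axis), with a row for each tissue and a column for each cluster. Coloured bars reach 2-fold (dashed lines), grey bars do not, hatched bars are bounds for Hoxd8, and crosses mark genes not well above background on either array. In interdigital tissue 7 of 8 Hoxc bars lie above the upper dashed line, and bar signs of single genes flip under other settings as given in the text.

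Hoxc9, a gene of the thoracic and limb field, had levels of 0.22, -0.68 and -0.22 in mutant interzone, growth plate and interdigital tissue, against -1.46, -2.99 and -2.09 in the control tissues in the same order. All 3 mutant arrays were above all 3 control arrays, with differences of 1.68, 2.31 and 1.87, or 3.21-fold, 4.95-fold and 3.66-fold higher. Hoxc9 has 1 probe, and its mutant arrays stayed above its control arrays under all 5 other settings that recompute levels. The mean of a gene's probes, 1 of these settings, cannot change a gene with 1 probe.

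Hoxc5 was at -0.56, -1.10 and -1.39 in mutant interzone, growth plate and interdigital tissue, against -4.12, -1.95 and -4.25 in the controls. The mutant arrays again lay above all control arrays, by 11.7-fold in the interzone, 1.80-fold in the growth plate and 7.26-fold in interdigital tissue within each pair. The growth plate difference of Hoxc5 was -0.28 with the deposited table, and with that table and with quantile normalization the groups overlapped. Hoxc6, a neighbour of Hoxc5, was at -1.53, 0.08 and -2.04 in the mutant tissues, against -4.05, -1.14 and -4.95 in the controls. Within the pairs the mutant exceeded the control by 5.71-fold, 2.33-fold and 7.53-fold, while its control growth plate array was above its mutant interzone and interdigital arrays. Hoxc8, known for thoracic identity, was at -3.73, -1.65 and -3.36 in mutant interzone, growth plate and interdigital tissue, against -4.79, -2.89 and -5.75 in the controls. Its differences of 1.07, 1.25 and 2.40 were all on the higher side, and the groups overlapped. Hoxc6 and Hoxc8 kept a positive sign in each tissue under all 5 other settings, though each has 1 probe, which the mean of probes leaves unchanged.

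Hoxc10 was far higher in mutant interdigital tissue and nearly equal in the growth plate. It was at 3.0, 3.82 and 3.68 in mutant interzone, growth plate and interdigital tissue, against 1.01, 4.01 and -0.64 in the controls. At this brightest probe the control interdigital array was the lowest and the control growth plate array the highest, and the mutant arrays lay between 3.0 and 3.82. Hoxc10 was 19.9-fold higher in mutant interdigital tissue and 3.97-fold higher in mutant interzone, and in the growth plate it differed by -0.19. A second Hoxc10 probe gave 1.87 in interdigital tissue but -2.10 in the interzone and 1.91 in the growth plate.

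Hoxc13 was at -0.67, 0.18 and -0.85 in mutant interzone, growth plate and interdigital tissue, against 1.28, -2.57 and -3.71 in the controls. It was 3.86-fold lower in the mutant interzone, but 6.70-fold and 7.25-fold higher in mutant growth plate and interdigital tissue. Hoxc12, its neighbour, was at -5.58, -2.33 and -4.12 in the mutant tissues, against -5.03, -4.94 and -5.28 in the controls, with the mutant growth plate array the highest by 1.79. Hoxc4, at the low-numbered end, was the Hoxc gene with no pair at or above 2-fold higher, with differences of 0.09, -1.35 and -0.80.

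The high-numbered genes of Hoxa and Hoxd, those of the digit-forming region, were lower in most of the mutant and control pairs. Of the 9 Hoxa and Hoxd genes with numbers 9 to 13, 8 were measured on all arrays and 7 of these had a lower level in the mutant of every pair, at any size of difference. The exception was Hoxd10, which was higher in the mutant growth plate. Over all named genes measured on all arrays, 24.5% were lower in the mutant of all 3 tissues, and the count of 8 over the 33 Hox genes is near that share. The median difference of the 8 genes was -1.0 in the interzone, -0.82 in the growth plate and -0.50 in interdigital tissue, with medians over all named genes of -0.13, -0.43 and -0.18. At 2-fold, 4 of the 8 were lower in the interzone, 3 lower and 1 higher in the growth plate, and 2 lower in interdigital tissue, where 23.0%, 32.1% and 15.8% of all genes were lower, so the growth plate count is near the share over all genes. Single signs within this group flipped with the setting, since Hoxa9 and Hoxd9 in the growth plate were higher in the mutant with quantile normalization and with the percentile over detected probes, and Hoxd12 in the interzone with normexp, quantile normalization and the deposited table.

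Hoxd13 had levels of 2.65, 2.34 and 2.91 in mutant interzone, growth plate and interdigital tissue, against 3.74, 3.24 and 3.21 in the controls. Every mutant array was below every control array, by 2.14-fold, 1.86-fold and 1.23-fold within the pairs. The second Hoxd13 probe gave -1.16 and -0.36 in the interzone and interdigital tissue, close to -1.10 and -0.30 for the brightest probe, but 2.84 in the growth plate against -0.90, so the growth plate direction rests on the probe. The separation of the groups was lost with quantile normalization, with the percentile over detected probes and with the mean of both probes.

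Hoxa13, the other gene needed for the digits, was at 1.25, 1.47 and 1.95 in mutant interzone, growth plate and interdigital tissue, against 2.15, 3.36 and 2.50 in the controls. Its mutant arrays all lay below its control arrays, by 1.86-fold, 3.71-fold and 1.46-fold. The second Hoxa13 probe was also lower in the mutant interzone (-4.31) and interdigital tissue (-0.34) but higher in the mutant growth plate (5.53), and the mean of both probes was 1.82 there.

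Hoxa10, a gene of the upper limb segment, was at -1.18, -1.03 and -1.08 in mutant interzone, growth plate and interdigital tissue, against 0.00, 0.63 and -0.19 in the controls. The 3 mutant values were within 0.15 of each other and below every control value, with folds of 2.27, 3.16 and 1.86 lower. Hoxa10 has 1 probe, and its groups stayed apart under all 5 other settings. It was the only Hox gene lower in the mutants of which that held, with Hoxa5 and Hoxc9 on the higher side. Each of these genes has 1 probe, so the mean of probes could not change them. Hoxa13, with 2 probes, lost its separation only with that mean.

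Hoxa9 was close to its control in each tissue, at 2.50, 2.39 and 2.89 in mutant interzone, growth plate and interdigital tissue, against 3.04, 2.43 and 3.34 in the controls. Hoxd9 was at 1.36, 1.56 and 2.24 in the mutant tissues, against 2.57, 1.90 and 2.55 in the controls, and its interzone pair was 2.31-fold lower in the mutant. The second Hoxd9 probe gave -0.93 and -1.25 in the interzone and interdigital tissue and -7.23 in the growth plate, against -0.34 there for the brightest probe. Hoxd11, a forearm gene that is also active in digits, was at -2.90, -1.33 and -0.37 in the mutant tissues, against -0.21, -0.58 and 0.79 in the controls. Its interzone pair differed by 6.46-fold. Its signs were kept under all 5 other settings, though Hoxd11 has 1 probe, which the mean of probes leaves unchanged. Hoxd12 was at -3.49, -4.45 and -3.33 in the mutant tissues, against -3.44, -2.99 and -1.04 in the controls. The Hoxd12 interdigital pair differed by 4.91-fold and its interzone pair by 0.05 on the log2 scale. Hoxd10 was at -0.21, -0.38 and 0.67 in the mutant tissues, against 0.32, -2.25 and 1.03 in the controls, and was 3.66-fold higher in the mutant growth plate. Hoxa11 was between -9.03 and -8.03 in the mutant tissues and between -7.89 and -7.36 in the controls, not well above background on any array.

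Beside these genes, the Hoxa genes with numbers 4 and 5 were higher in the mutants. Hoxa5, known for cervical and shoulder structures, was at 1.70, 1.38 and 1.44 in mutant interzone, growth plate and interdigital tissue, against -2.69, -1.99 and 0.84 in the controls. The mutant arrays were within 0.32 of each other and above all control arrays, by 20.9-fold, 10.4-fold and 1.52-fold. This held under all 5 other settings, though Hoxa5 has 1 probe, which the mean of probes leaves unchanged. Hoxa4 was at 0.55, -1.83 and -1.43 in the mutant tissues, against -3.85, -3.85 and -2.94 in the controls, or 21.2-fold, 4.06-fold and 2.85-fold higher. With normexp correction the interdigital difference of Hoxa4 was -0.36 and the groups overlapped, and its second probe gave 0.85 in the interzone and -0.30 in interdigital tissue. Hoxb9, a gene of the thoracic and limb field, was at -0.11, -0.61 and -0.41 in the mutant tissues, against -2.41, -2.38 and -1.76 in the controls. Within the pairs the mutant was above the control by 4.90-fold, 3.39-fold and 2.56-fold, while its second probe gave -0.02 in the interzone, 2.89 in the growth plate and -1.35 in interdigital tissue.

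Counted over all 3 pairs, 7 of 33 Hox genes were higher in the mutant of every pair at any size, Hoxa4, Hoxa5, Hoxb9, Hoxc5, Hoxc6, Hoxc8 and Hoxc9, where 10.1% of all named genes were. At 2-fold in every pair there were 5 of 33 on the higher side, Hoxa4, Hoxb9, Hoxc6, Hoxc8 and Hoxc9, where 1.60% of all genes were, and none on the lower side, where 1.90% were. The higher count rests on the setting, mostly through the growth plate: with quantile normalization it was 1 of 33 (Hoxc9; 1.88% of all genes) and with the deposited table also 1 (Hoxc9; 1.45%). It was 3 with the mean of probes (Hoxc6, Hoxc8 and Hoxc9), 4 with normexp correction and 6 with the percentile over detected probes. On the lower side quantile normalization gave 2, Hoxa10 and Hoxd11. All 3 mutant arrays lay above all 3 control arrays for 5 of 33 (4.50% of all genes) and below them for 3 of 33 (12.2% of all genes). These 8 genes are shown in the plot of mutant and control levels. Of the 7 genes higher in every pair 5 kept that direction in all 5 other settings, with Hoxa4 and Hoxc5 the exceptions. Of the 8 lower in every pair 2 did, Hoxa10 and Hoxd11. Among the genes that kept it, Hoxb9 alone has 2 probes, and the mean of probes leaves the others unchanged. With the mean of probes Hoxb9 differed by only 0.003 in interdigital tissue, and its mutant and control arrays overlapped. Hoxa13 and Hoxd13, with 2 probes, changed sign only with that mean.

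**Figure D3:**
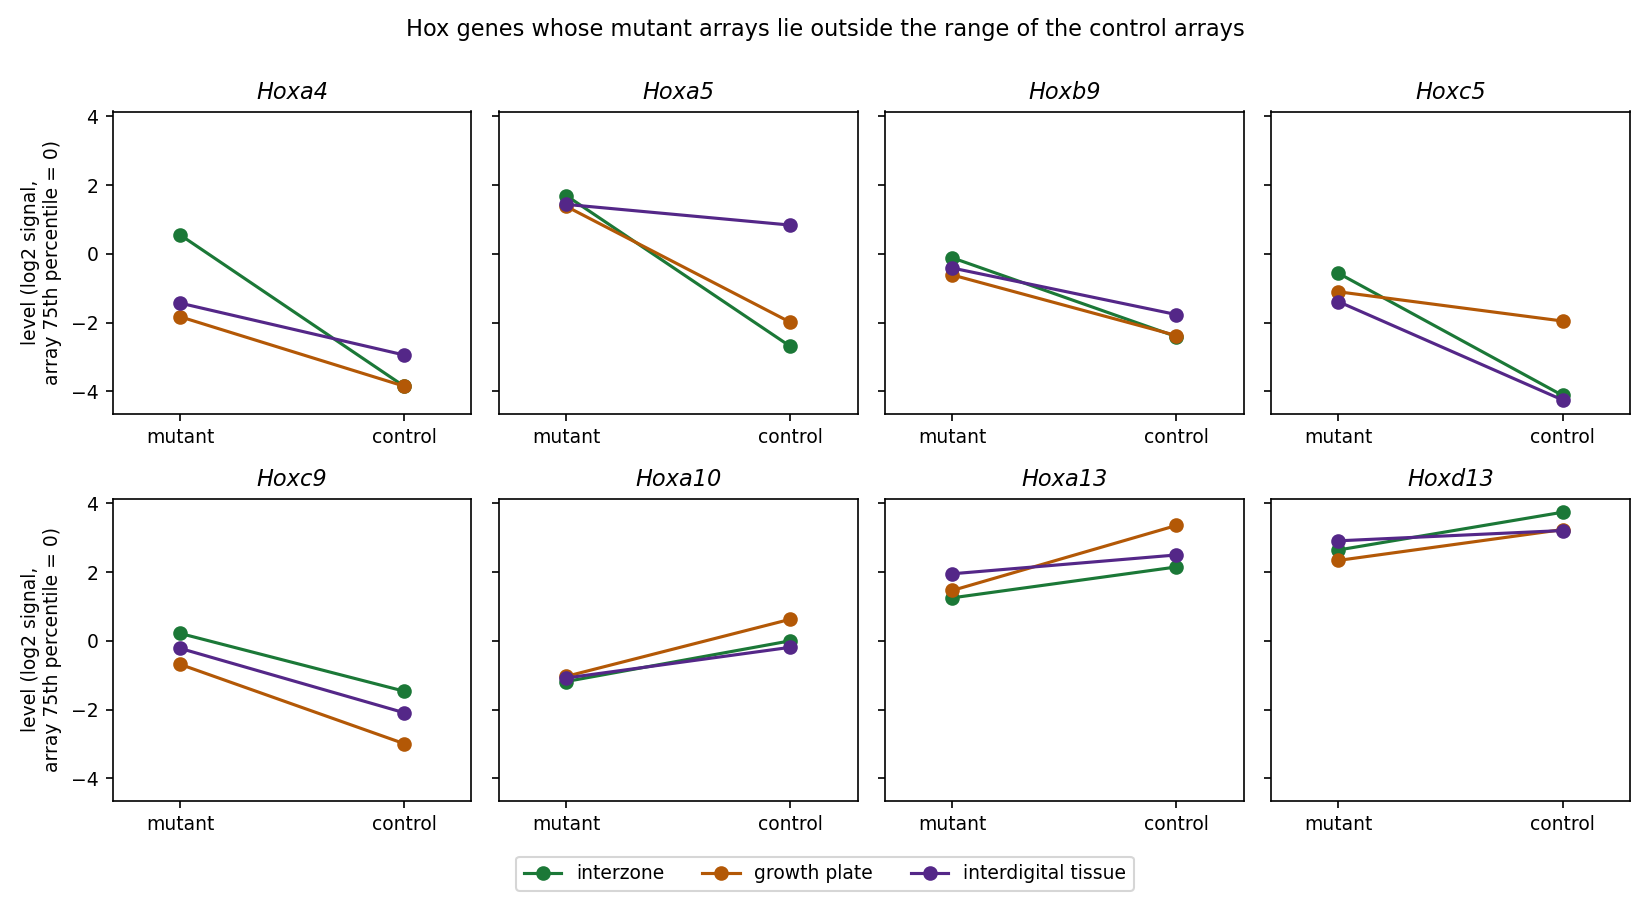
Level (vertical axis, log2 signal with the array's 75th percentile at 0) on the mutant and control array of each tissue (coloured lines) for the 8 Hox genes whose 3 mutant arrays lay outside the range of the 3 control arrays. Hoxa4, Hoxa5, Hoxb9, Hoxc5 and Hoxc9 slope down from mutant to control and Hoxa10, Hoxa13 and Hoxd13 slope up. The groups stayed apart in all settings for Hoxa5, Hoxc9 and Hoxa10, which have 1 probe each, so the mean of probes could not change them. In the growth plate Hoxc5 (deposited table), Hoxa13 and Hoxd13 (mean of probes) changed sign, as did Hoxa4 in interdigital tissue (normexp).

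Promoter windows are shown for those of the 8 genes that the RefSeq promoter table holds, since their mutant and control arrays did not overlap. The table (build GRCm38.p6) had 24 windows of 300 bases, 250 before to 50 after a transcript start, for 22 of the 38 Hox genes. Each is printed 5′ to 3′ along the gene's strand, with capitals marking matches on either strand to the TATA box motif TATAAA, the CCAAT box motif CCAAT and the Smad motif CAGACA. Smad proteins carry the TGF-beta signal to DNA. Hoxa10 has a pair of annotated starts. The windows lie at chr6:52204538-52204837 (Hoxa5, minus strand), chr6:52234890-52235189 and chr6:52240805-52241104 (Hoxa10, minus strand), chr6:52260831-52261130 (Hoxa13, minus strand) and chr2:74667975-74668274 (Hoxd13, plus strand).
Hoxa5: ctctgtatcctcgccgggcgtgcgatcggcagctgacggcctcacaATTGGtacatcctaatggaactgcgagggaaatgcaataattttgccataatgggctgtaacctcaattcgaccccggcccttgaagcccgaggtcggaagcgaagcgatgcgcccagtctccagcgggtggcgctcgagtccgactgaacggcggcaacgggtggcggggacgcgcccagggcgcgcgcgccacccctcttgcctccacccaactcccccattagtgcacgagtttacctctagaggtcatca
Hoxa10 start nearer Hoxa9: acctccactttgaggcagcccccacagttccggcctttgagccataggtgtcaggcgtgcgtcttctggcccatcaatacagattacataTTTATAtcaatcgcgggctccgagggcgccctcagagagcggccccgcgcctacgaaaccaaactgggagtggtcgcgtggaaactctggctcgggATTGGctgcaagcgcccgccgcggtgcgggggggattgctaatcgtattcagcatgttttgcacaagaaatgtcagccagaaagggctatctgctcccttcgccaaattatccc
Hoxa10 other start: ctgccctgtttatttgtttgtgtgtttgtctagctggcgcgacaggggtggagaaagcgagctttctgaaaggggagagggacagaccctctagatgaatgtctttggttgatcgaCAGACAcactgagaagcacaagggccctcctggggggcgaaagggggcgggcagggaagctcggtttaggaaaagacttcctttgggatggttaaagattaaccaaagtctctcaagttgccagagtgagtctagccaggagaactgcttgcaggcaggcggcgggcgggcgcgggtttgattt
Hoxa13: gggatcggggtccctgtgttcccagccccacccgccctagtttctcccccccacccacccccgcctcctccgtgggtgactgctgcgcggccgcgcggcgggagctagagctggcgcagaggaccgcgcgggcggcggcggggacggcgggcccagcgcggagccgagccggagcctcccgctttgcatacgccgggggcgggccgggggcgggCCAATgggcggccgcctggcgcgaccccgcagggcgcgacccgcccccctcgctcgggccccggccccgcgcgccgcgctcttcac
Hoxd13: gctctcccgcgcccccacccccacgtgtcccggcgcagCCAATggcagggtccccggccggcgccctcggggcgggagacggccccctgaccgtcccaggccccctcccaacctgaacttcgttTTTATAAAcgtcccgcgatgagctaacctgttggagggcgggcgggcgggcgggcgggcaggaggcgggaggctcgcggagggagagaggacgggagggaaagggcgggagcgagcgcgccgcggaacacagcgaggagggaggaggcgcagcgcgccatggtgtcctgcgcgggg

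CCAAT was present in 15 of the 24 Hox windows and in 37.4% of the 32851 windows of the table. In the printed windows it begins 204 bases before the start of Hoxa5, 64 before the nearer start of Hoxa10, 36 before Hoxa13 and 212 before Hoxd13. TATAAA was present in 4 Hox windows (Hoxa10, Hoxb8, Hoxd4 and Hoxd13) and in 13.6% of all windows. In Hoxd13 it matched on both strands in overlapping letters. CAGACA was present in 4 Hox windows (Hoxa2, Hoxa10, Hoxb4 and Hoxd11) and in 21% of all windows, and the longer Smad motif GTCTAGAC in none of them and in 0.213% of all windows. Of the printed genes, Hoxa10 alone held CAGACA, 134 bases before its other start.

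The Hoxb genes and the low-numbered Hoxd genes showed large differences in single tissues. In the interzone Hoxb7 was at 1.11 in the mutant, against -3.38 in the control, and was 22.6-fold higher, the largest difference there of any Hox gene measured on both arrays. In interdigital tissue Hoxb7 was at -2.60 in the mutant, against -3.23 in the control, and both growth plate arrays had it not well above background. Hoxb2, a hindbrain gene, was at -1.0, -3.79 and -4.28 in mutant interzone, growth plate and interdigital tissue, against -5.24, -2.63 and -2.34 in the controls. At its brightest probe Hoxb2 was 18.9-fold higher in the mutant interzone but 2.23-fold and 3.83-fold lower in the other mutant tissues. Its second probe was not well above background on any interzone or interdigital array, and gave -3.55 in the growth plate. Hoxb4, known from the hindbrain and from blood-forming cells, showed a pattern like that of the brightest Hoxb2 probe. It was 5.89-fold higher in the mutant interzone and 2.21-fold and 1.42-fold lower in the mutant growth plate and interdigital tissue.

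Hoxb5, a gene of the forelimb-level trunk, was at -6.00, -6.13 and -1.36 in mutant interzone, growth plate and interdigital tissue, against -4.45, -0.87 and -3.02 in the controls. The growth plate pair differed by 38.3-fold, lower in the mutant, the largest Hox difference of any pair measured on both arrays. Its interdigital pair was 3.14-fold higher in the mutant, and its interzone pair 2.93-fold lower, though 1.87 on the log2 scale higher with normexp correction. Hoxb8, known from blood-forming cells and the trunk, was 2.56-fold lower in the mutant growth plate and 6.37-fold higher in mutant interdigital tissue.

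Hoxd4 was at -5.14, -1.0 and -5.72 in the mutant tissues, against -5.14, -2.02 and -1.88 in the controls, 14.3-fold lower in mutant interdigital tissue and 2.02-fold higher in the mutant growth plate. Hoxd3, known for the first neck vertebrae, was at -3.02, -4.99 and -3.55 in the mutant tissues, against -3.41, -1.49 and -3.76 in the controls, so that the control growth plate array stood above the other arrays.

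Hoxd8 was the gene with bounds between mutant and control. In the interzone it was not well above background in the mutant, against -1.54 in the control, at least 31.2-fold lower. In the growth plate it was at -2.02 in the mutant and not well above background in the control, at least 23.2-fold higher. In interdigital tissue it was at -3.61 in the mutant and -4.49 in the control, so the 3 pairs had no common direction. Hoxa7 was higher in mutant growth plate (4.62-fold) and interdigital tissue (5.39-fold) and 1.31-fold lower in the mutant interzone.

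At the brightest probe Hoxa6, Hoxa9, Hoxb6 and Hoxb13 differed by under 2-fold in all 3 pairs. Hoxb6, a gene of lateral mesoderm and limb, was at 2.17, 1.90 and 1.83 in mutant interzone, growth plate and interdigital tissue, against 1.86, 2.41 and 1.86 in the controls. The second Hoxb6 probe gave differences of -1.04, 0.29 and 0.10 in the same order, so its interzone pair passed 2-fold. Hoxb13, best known from tail and prostate, was at 0.76, 0.31 and 0.59 in the mutant tissues, against 0.52, 0.81 and 0.70 in the controls. Its total range over the arrays was the smallest of the 33 genes. Hoxa2, Hoxa3 and Hoxb3 had mutant minus control differences between -1.68 and 1.27 with signs that differed between tissues.

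Within controls the growth plate and interdigital tissue differed most in the Hoxc genes. Of 8 Hoxc genes 5 were at least 2-fold higher in control growth plate than in control interdigital tissue and none lower, with a median difference of 1.72, where 24.7% of all genes were higher and 25.0% lower. Hoxc10 (4.64) and Hoxc6 (3.81) had the largest differences. The second Hoxc10 probe went the other way, at -2.65 in control growth plate and -1.68 in control interdigital tissue. Over all Hox genes 9 of 33 were higher and 6 lower in this pair, and Hoxd10, at -3.28, was the lowest of the Hoxd genes measured on both arrays. Between control interzone and control growth plate 5 of 33 Hox genes were higher and 10 lower in the interzone, where 25.2% and 23.5% of all genes were. Between control interzone and control interdigital tissue 4 of 35 were higher and 7 lower in the interzone, where 14.9% and 14.7% of all genes were. Among genes measured on both arrays Hoxc13 differed most upward in these pairs, at 3.85 and 4.99 higher in control interzone than in control growth plate and control interdigital tissue. Hoxd8 and Hoxb7, not well above background in control growth plate, were at least 32.3-fold and 9.02-fold higher in control interzone. Against control interdigital tissue Hoxd8 was 7.72-fold higher in control interzone, and Hoxb7 1.11-fold lower.

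Between mutant tissues the brightest Hoxc10 probe differed by less than 1 unit in every pair. Its second probe was at -3.24, -0.74 and 0.19 in mutant interzone, growth plate and interdigital tissue. In mutant growth plate against mutant interdigital tissue 6 of 34 Hox genes were higher and 6 lower, where 13.3% and 16.2% of all genes were, and 4 of 8 Hoxc genes were higher. In mutant interzone against mutant growth plate 6 of 33 were higher and 6 lower, where 21.2% and 18.3% of all genes were. In mutant interzone against mutant interdigital tissue 6 of 34 were higher and 8 lower, where 18.1% of all genes were in each direction. At the brightest probes Hoxd13 differed by at most 0.57 and Hoxa13 by at most 1.21 between tissues of a genotype, in all 6 pairs. Their second probes varied more. That of Hoxd13 was at 1.49, -2.23 and 1.96 in control interzone, growth plate and interdigital tissue, and its mutant arrays lay closer together. That of Hoxa13 was at -5.12, -0.47 and 0.66 in the mutant tissues, and its control growth plate array lay far below the other control arrays. Each tissue comparison rests on 1 array per tissue, and the control growth plate array, which had the lowest median signal (103, against 340 to 502 on the other arrays), takes part in 3 of the comparisons above.

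Where a Hox gene had 2 probes, the probes often disagreed, as the plot of both probes shows. There were 11 such genes and 27 with 1 probe. Among those measured at both probes and at least 2-fold different at the brightest, the second probe had the same sign for 3 of 5 in the interzone, 2 of 3 in the growth plate and 1 of 4 in interdigital tissue. Over all named genes with a second probe the shares were 61.8%, 60.7% and 68.2%. The median gap between the probes was 2.31 in the interzone, 2.40 in the growth plate and 0.94 in interdigital tissue for the Hox genes, and 1.19, 1.52 and 0.70 over all named genes. A difference in 1 tissue at a gene with 1 probe therefore has no check within these arrays.

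**Figure D4:**
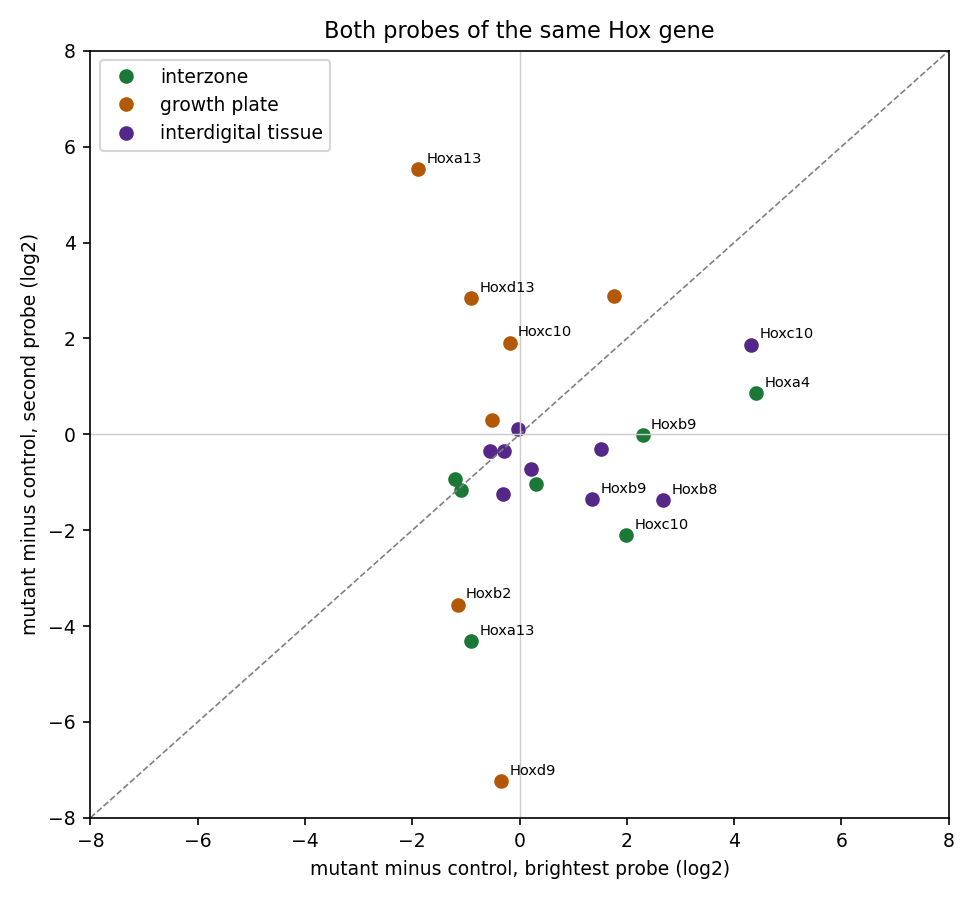
Mutant minus control difference at the second probe (vertical axis, log2) against that at the brightest probe (horizontal axis, log2) for Hox genes with 2 probes, coloured by tissue, where both probes were well above background on both arrays. The dashed line marks equality, and names are given where the probes differ by over 2; the growth plate points of Hoxa13 and Hoxd9 lie farthest from the line.

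Among the genes of proteins that bind DNA with Hox proteins, Meis2 and Meis1 were higher in the mutants. Meis2, a partner that marks the upper limb, was at 1.03, 2.09 and 2.86 in mutant interzone, growth plate and interdigital tissue, against -1.36, -5.84 and -2.19 in the controls, all mutant arrays above all control arrays. Within the pairs the mutant exceeded the control by 5.21-fold, 244-fold and 33.0-fold. Meis1, another partner of the upper limb, was at -5.22, -1.39 and -0.46 in the mutant tissues, against a value not well above background in control interzone and -6.09 and -3.01 in control growth plate and interdigital tissue. Of the 9 cofactor genes, 3 of 8 measured were at least 2-fold higher in the mutant interzone and none lower, 4 of 8 higher and 1 lower in the growth plate, and 2 of 9 higher and none lower in interdigital tissue. The counts of this list and of the lists below stand beside these shares of all named genes. In interzone, growth plate and interdigital tissue 17.5%, 22.3% and 10.2% were at least 2-fold higher and 23.0%, 32.1% and 15.8% lower.

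The 22 Polycomb and Trithorax genes, whose products hold Hox genes silent or active, had 5 higher and 4 lower of 22 in the interzone, 10 higher and 6 lower of 21 in the growth plate, and 2 higher and 3 lower of 22 in interdigital tissue. Cbx7, a Polycomb gene, was higher in the mutant of each pair, at -2.34, -1.16 and -2.39 in mutant interzone, growth plate and interdigital tissue, against -5.25, a value not well above background, and -5.53 in the controls. Kdm6a, of the same list, was lower in the mutant of each pair, with differences of -2.51, -2.71 and -1.51 in that order of tissues. Of the genes that lie beside the clusters, 11 were measured, with 1 higher and 2 lower in the interzone, 2 higher and 4 lower in the growth plate, and none higher and 1 lower in interdigital tissue. Smug1, which lies beside Hoxc, differed by 2.28 in the interzone, 2.97 in the growth plate and 0.24 in interdigital tissue. Cbx5, also beside Hoxc, differed by 0.68, -1.97 and -0.10 in the same order. Of the 8 Hoxc genes 5, 5 and 7 were at least 2-fold higher in those tissues.

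The list of limb genes gave 3 higher and 8 lower of 24 in the interzone, 8 higher and 6 lower of 24 in the growth plate, and 5 higher and 1 lower of 26 in interdigital tissue. Genes that tell hindlimb from forelimb had overlapping values in both genotypes. Pitx1, a hindlimb gene, was at 0.07 and -1.19 in mutant interzone and interdigital tissue and not well above background in mutant growth plate, against -1.26, 0.50 and -1.03 in control interzone, growth plate and interdigital tissue. Tbx4, also of the hindlimb, was at -0.74, -1.09 and -0.09 in mutant interzone, growth plate and interdigital tissue, against 0.45, -4.57 and 0.37 in the controls. Tbx5, of the forelimb, was at -1.16, -2.29 and -1.65 in the mutant tissues, against -0.89, -1.46 and -1.42 in the controls.

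Markers of the labelled tissues and of other cells also differed. In units of each array's 75th percentile, the summed level of the 10 cartilage markers was 78.8, 61.4 and 63.3 on the mutant interzone, growth plate and interdigital arrays, against 156, 548 and 91.0 on the control arrays. The growth plate array was thus the highest among controls and the lowest among mutants. The 9 interzone markers summed to 18.3, 11.8 and 19.3 on the mutant arrays, against 52.9, 21.0 and 14.7 on the control arrays, and the 8 interdigital markers to 4.58, 5.41 and 7.29, against 11.2, 3.88 and 7.88. Of 9 epidermis markers, 8 of 9 measured were at least 2-fold higher in the mutant interzone, 4 of 7 in the growth plate and 7 of 7 in interdigital tissue. None was at least 2-fold lower, and Trp63 differed by -0.30 in the interzone. Their summed level was 144 to 165 on the mutant arrays and 2.59 to 69.0 on the control arrays. Of these markers, Cdh1 and Trp63 were not well above background in control growth plate and interdigital tissue, and the others were. In control growth plate Krt15 (4.34), Krt10 (3.88), Perp (3.60), Krt14 (3.35) and Dsp (3.28) had high levels, with Epcam at 0.07 and Krt5 at -0.25. Cartilage markers went the other way, with 7, 10 and 2 of 10 lower in mutant interzone, growth plate and interdigital tissue. All 10 cartilage markers were well above background on every array. Skeletal muscle markers had sums of 14.7 to 38.0 on mutant arrays and 15.2 to 52.2 on control arrays, with 5 of 8 higher in the mutant interzone and 6 of 8 lower in the mutant growth plate. The sums of the endothelium, macrophage and erythroid lists overlapped between genotypes, and those of the nerve and Schwann cell list were 9.62 to 13 on mutant and 4.07 to 5.45 on control arrays. The part of these cells in the Hox differences was not tested.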

How the data were processed

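The 6 one-colour arrays held 1 mouse design and were made 1 for each of 3 tissues and 2 genotypes. Groups came from the titles, since the descriptions of 5 samples name irradiated human blood while their other labels name mouse limb. Per the labels' protocols, captured RNA was amplified by the undisclosed SuperAmp procedure, and 250 ng of product carried Cy3. Per the file headers, the scanner software was Agilent Feature Extraction 9.5.1.1, and the deposited intensity of each spot is background-subtracted. The authors' deposited value table holds a linear ratio, the processed signal over the array's median, as found by setting it against the scanner files; why it was scaled so is not stated, and it served as an alternative.

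After control and outlier spots were dropped, the spots of each probe were averaged, giving 41174 probes. Probes were named by accession, symbol or older symbol through a RefSeq gene table (GRCm38.p6, for names only); 32716 matched and 8458 did not. A level is the log2 of the processed signal after division by that array's 75th percentile. A difference was called at 2-fold where both arrays were well above background; otherwise a bound was taken against the dim array's lowest signal well above background or the probe's own signal there, whichever was higher. Counting steps were tested on simulated data. Python 3.11.15, pandas 2.3.3, R 4.3.3 and limma 3.58.1 (normexp with an offset of 50, quantile normalization) were used.

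The members and the gene lists were chosen with earlier results of these data known. Values on every array are given for Hoxa and Hoxd genes 9 to 13, Hoxb and Hoxc genes 11 to 13, the 2 brightest genes of each cluster, the 5 with the largest difference in each tissue, and bounds of 4-fold or more; other genes come from the fixed lists or were named after their values were seen. Some values of single genes are not reported here, though all members are in the counts and medians. Alternatives were normexp correction, quantile normalization, the percentile over detected probes, the deposited table, the mean of a gene's probes, no filter on dim probes, and a 4-fold call. A planned rank correlation of level with paralog number was left out, since signals of different probes are not on one scale. Of 8 promoter motifs searched on both strands, the core promoter and Smad motifs are given.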

Additional observations from a re-analysis of the deposited data

Results flagged for a closer look

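There were 6 Hox genes that were at least 2-fold higher in the mutant of one tissue and at least 2-fold lower in the mutant of another. Each value compares 1 mutant array with 1 control array, and the difference between tissues was not tested. The share of all named genes with such opposite calls was not counted, so the 6 are not read as particular to Hox genes. In single pairs 10.2% to 22.3% of all named genes were at least 2-fold higher and 15.8% to 32.1% lower. Hoxb2 differed by 4.24 on the log2 scale in the interzone, by -1.15 in the growth plate and by -1.94 in interdigital tissue. Hoxb4 differed by 2.56 in the interzone and by -1.14 in the growth plate. Hoxb5 differed by -1.55 in the interzone, by -5.26 in the growth plate and by 1.65 in interdigital tissue. Hoxb8 differed by -1.36 in the growth plate and by 2.67 in interdigital tissue. Hoxc13 differed by -1.95 in the interzone, by 2.74 in the growth plate and by 2.86 in interdigital tissue. Hoxd4 differed by 1.02 in the growth plate and by -3.84 in interdigital tissue. Of the 6 genes, 4 are Hoxb genes, a count that also has no share over all genes beside it. Hoxb2 and Hoxb8 have second probes: in the growth plate that of Hoxb2 gave -3.55, the same sign as its brightest probe, and in interdigital tissue that of Hoxb8 gave -1.37, the opposite sign. The second Hoxb2 probe was not well above background on any interzone or interdigital array, so it does not check the interzone rise. The remaining 4 genes have 1 probe each.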

How the results depend on the processing

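With 1 array per group and no replicate numbers in the labels, no replicate block could be fitted and no replicate left out. Mutant and control were paired by tissue throughout, and a fit that takes the 3 tissues as replicates was not run, since the same embryos may stand behind them. Counts here are of Hox genes at least 2-fold higher and lower, the mutant, or the tissue named first, against the other. For mutant against control, normexp correction gave 20 higher and 5 lower of 34 in the interzone (58.8% and 14.7%). Of all named genes 31.7% were higher and 13% lower there, so the rise in the higher count was not limited to Hox genes. The deposited table gave 5 lower in the interzone (14.7%, against 18.5% of all genes), and 5 higher and 20 lower in the growth plate. Those growth plate counts, 15.2% and 60.6% of 33, were near the shares of all genes, 13% and 64.6%. Quantile normalization gave 6 higher in the growth plate (18.2%, against 19.5% of all genes). The percentile over detected probes gave 6 lower there (18.2%, against 22.4% of all genes). At 4-fold there were 1 lower in the interzone, 6 higher and 2 lower in the growth plate, and 7 higher and 3 lower in interdigital tissue. At that call 10.3% of all genes were lower in the interzone. In the growth plate 13.8% were higher and 12.2% lower, and in interdigital tissue 3.37% and 3.84%. For the tissue comparisons that follow no share of all genes is given, so those changes are not read as particular to Hox genes. For control interzone against growth plate, 8 were higher with the percentile over detected probes and 8 with the mean of probes, 2 higher and 22 lower with the deposited table, and 2 higher at 4-fold. For control interzone against interdigital tissue, 7 were higher with quantile normalization and 7 with the deposited table, and 2 at 4-fold. For control growth plate against interdigital tissue, 12 were lower with the percentile over detected probes and 12 with the mean of probes, 21 higher and 3 lower with the deposited table, and 3 lower at 4-fold. For mutant interzone against growth plate, normexp gave 11 higher and 2 lower, the deposited values 10 higher, the mean of probes 10 lower, and the 4-fold call 3 higher. For mutant interzone against interdigital tissue, normexp gave 13 higher and 3 lower, quantile normalization 10 higher, and the 4-fold call 4 lower. For mutant growth plate against interdigital tissue, normexp gave 3 lower and the 4-fold call 2 higher and 2 lower. The 4-fold call counts fewer genes by construction; otherwise the cause was not tested.

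Single called differences changed sign in 7 of the cases reported. With normexp, Hoxb5 (1.87) was higher in the mutant interzone and Hoxa4 (-0.36) was lower in mutant interdigital tissue. With the mean of probes, Hoxa3 (1.47) was higher and Hoxc10 (-0.054) lower in the mutant interzone, and Hoxa13 (1.82) and Hoxb8 (0.11) were higher in the mutant growth plate. With the deposited table, Hoxd4 (-0.11) was lower in the mutant growth plate. Without the filter on dim probes no sign changed. Genes near background, whose signal the background correction sets, are the least certain.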
